A study of Homo sapiens with 6 samples.

Results

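The genes described here load peptides onto major histocompatibility complex (MHC) class I molecules, in SKOV3 cells, an established human ovarian cancer line. They are HLA-B, HLA-C, B2M, TAP1, TAP2, TAPBP, NLRC5, PSMB8 and PSMB9. The gene name column of the array files repeats the probe name, so a probe was assigned to a gene when its 60 bases matched a sense transcript of GENCODE release 44 exactly. Of 43495 genes matched in this way these are 9, with 23 of the 125601 non-control probes, and no probe matched a transcript of another gene exactly. By gene, NLRC5 had 8 probes, TAPBP had 4, HLA-B, HLA-C, B2M and TAP2 had 2 each, and TAP1, PSMB8 and PSMB9 had 1 each.

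RNA was hybridised to 6 single-colour Agilent arrays, 3 labelled as cells given 100 nmol/L 1α,25(OH)2D3, the hormonally active form of vitamin D, and 3 labelled as cells given vehicle (ethanol), each for 72 h. All arrays thus share the same cell line and medium with 10% heat-inactivated fetal bovine serum, and the groups differ by label only in the hormone. No source says that the replicates came from separate cultures, so p-values measure only the spread between these arrays. Values below are the deposited log2 values, on which a difference of 1 is a factor of 2, and all fold changes are the group labelled 1α,25(OH)2D3 minus the group labelled vehicle, with limma's 95% interval. In RNA from a whole culture, fewer expressing cells and less RNA per cell cannot be told apart.

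A class I molecule is a polymorphic heavy chain, such as those encoded by HLA-B and HLA-C, held together with the invariant light chain β2-microglobulin, encoded by B2M. Cytosolic proteins are cut by the proteasome, in which PSMB8 and PSMB9 replace constitutive catalytic subunits to form the immunoproteasome, and the TAP1 and TAP2 transporter carries the peptides into the endoplasmic reticulum, where tapasin, encoded by TAPBP, bridges the transporter to the empty heavy chain. NLRC5 is the transcriptional activator of class I genes, and carcinoma cells are known for losing parts of this pathway and thereby escaping cytotoxic T cells.

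Before the members, the labels and the cell type were checked. CYP24A1, which encodes the enzyme that breaks down 1α,25(OH)2D3 and is a standard target of the hormone, went against the labels: its probe A_23_P28815 read 2.23, 13.84 and 3.30 in the group labelled 1α,25(OH)2D3 (replicates 1 to 3) but 14.18, 4.75 and 14.34 in the vehicle-labelled group. The same 3 arrays were the brightest on the other CYP24A1 probes, A_33_P3369401 at 3.88, 14.64 and 4.46 against 15.16, 8.24 and 15.25, and OEV5_63001 at 2.14, 9.99 and 2.15 against 10.32, 2.21 and 10.23. The labels are therefore kept as names only, and every direction below is that of the labels. Slide 1 carries 2 arrays, replicates 1 and 2 with the hormone label, and slide 2 carries the other 4. The share of probes well above background ran from 49.1% (labelled vehicle replicate 2) to 57.5% (labelled 1α,25(OH)2D3 replicate 1). Of the markers of an epithelial ovarian carcinoma line, 6 of 6 were well above background on all arrays, with summed levels (log2, over each gene's brightest probe) of 16.62 to 16.96 in the group labelled 1α,25(OH)2D3 and 16.83 to 16.95 in the group labelled vehicle. KRT7, at 15.78 to 16.41, was the brightest, and KRT18 rests on a single intron probe. Groups did not overlap on the brightest MUC16 probe, at -0.71 (unadjusted p = 0.00754, adjusted p = 0.701, limma). The other MUC16 probe gave 0.10. Of 4 fibroblast markers, COL1A1 and COL1A2 were well above background on all arrays with 1 probe each (of 8 and 6), wholly or mainly intronic. DCN was so on no array and LUM on 1, labelled 1α,25(OH)2D3. The sums were 8.57 to 9.13 and 7.83 to 8.59. They include the brightest COL1A2 probe, with a fold change of 1.60 (interval -0.18 to 3.38) and 2 of the 3 vehicle-labelled arrays well above background. Of 7 immune cell markers, 6 had a probe well above background on all arrays and HLA-DRA had none. PTPRC did so with 2 of its 8 probes, the other 6 being above background on no array, and CD79A rests on a single probe at 16.32 to 16.77 whose specificity was not settled. With CD79A the sums were 16.44 to 16.79 and 16.33 to 16.55, and without CD79A the sums were 9.73 to 10.02 and 9.78 to 9.89. The part of these markers in the results was not tested.

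Between the labelled groups, no member probe passed the adjusted threshold of 0.05. The adjusted p-values (limma, Benjamini-Hochberg over 63337 probes, those with signal well above background on every array of at least 1 label) ran from 0.701 to 0.984. All 23 member probes entered that fit, and 22 were well above background on all 6 arrays. Across the whole array 0% of the tested probes passed, and a test of each probe without limma's pooling of variances called 0 as well. Before adjustment, 2 of the 23 member probes had a p under 0.05 by limma, both lower with the label 1α,25(OH)2D3, beside 6.77% of all tested probes in either direction and 2.76% in the lower direction. The 2 were the exon probes of HLA-B and HLA-C. Groups did not overlap for 3 member probes (HLA-B, HLA-C and TAP1), beside 12.2% of all tested probes. The median member fold change was -0.03, with 11 probes above 0 and 12 below, the median over all tested probes was -0.00, and no member fold change exceeded a factor of 2.

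**Figure D1:**
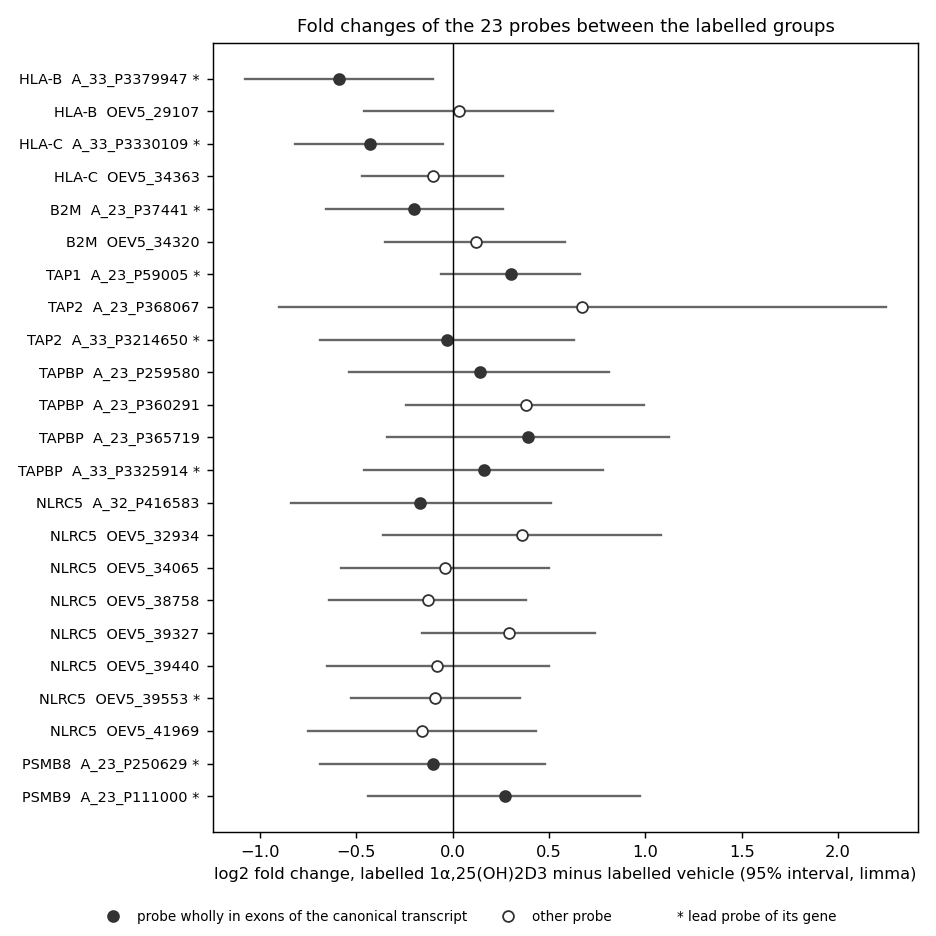
Log2 fold change of the 23 probes (points) with 95% limma intervals (lines), in the group labelled 1α,25(OH)2D3 against the group labelled vehicle, 3 arrays each; filled points are probes wholly within exons of the canonical transcript and an asterisk marks the probe with the highest mean of its gene. The intervals of the HLA-B and HLA-C exon probes, from -1.08 to -0.10 and from -0.82 to -0.05, are the only ones that leave out 0.

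The classical heavy chains HLA-B and HLA-C had lower exon signal in the group labelled 1α,25(OH)2D3, by 1.5-fold and 1.35-fold. Their genes lie in the MHC on chromosome 6 (hg38, minus strand), HLA-B at chr6:31353872-31367067 and HLA-C at chr6:31268749-31272130. Both exon probes lie in the 3′ untranslated region of the last of 8 exons, at chr6:31353876-31353935 and chr6:31268840-31268899. These regions are so alike that 58 of the 60 bases of the HLA-B probe also occur in HLA-C, and 55 of the 60 bases of the HLA-C probe in HLA-B. The 30 bases of each probe that hold most of the differences are shown to make this visible, with the bases that differ from the other gene in capitals.
HLA-B A_33_P3379947, bases 10 to 39: taagtcaattcctGgaaTttgagagagcaa
HLA-C A_33_P3330109, bases 21 to 50: cctaAtgaaGTtaagaaCctgaatataaat
Signal on either probe may therefore include RNA of the other gene. Besides HLA-B itself, 3 genes share 50 or more bases with the HLA-B probe, HLA-C among them. The HLA alleles of the line were not read here.

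On the HLA-B exon probe the arrays labelled 1α,25(OH)2D3 read 11.76, 11.97 and 11.93, and those labelled vehicle read 12.08, 12.55 and 12.80. All 3 vehicle-labelled arrays lay above the others, with vehicle replicate 1 only just so. The means were 11.89 ± 0.11 and 12.47 ± 0.37 (SD, n = 3), a log2 fold change of -0.59 (SE 0.21, unadjusted p = 0.0251, adjusted p = 0.701 by limma). On the HLA-C exon probe the values were 12.54, 12.69 and 12.74 against 12.88, 13.13 and 13.27. The groups again did not overlap, and the fold change was -0.43 (SE 0.17, unadjusted p = 0.032, adjusted p = 0.701 by limma). This probe is printed 10 times on each array, and its spots differed by an SD of only 0.0359 to 0.0771 within an array.

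Slide 1 holds a single label, so a fit with slide as a block takes its fold change from the 4 arrays of slide 2. With slide as a block the fold changes were -0.54 (unadjusted p = 0.131, limma) for HLA-B and -0.35 (unadjusted p = 0.163) for HLA-C. Within slide 2, where a lone array labelled 1α,25(OH)2D3 stood against 3 labelled vehicle and was assumed to vary like them, they were -0.54 (unadjusted p = 0.175 by limma) and -0.35 (unadjusted p = 0.211). Leaving out single arrays moved HLA-B between -0.78 and -0.43 and HLA-C between -0.54 and -0.35. Neither kept an unadjusted p under 0.05 without 1α,25(OH)2D3 replicate 1 or without vehicle replicate 2 or 3, nor did HLA-B without 1α,25(OH)2D3 replicate 3 or HLA-C without 1α,25(OH)2D3 replicate 2.

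Both genes also have a probe that matches retained-intron transcripts, and these gave differences nearer to 0 than the exon probes. The HLA-B probe, OEV5_29107 at chr6:31355591-31355650, has 58 intronic bases and 2 bases of exon 4, and the HLA-C probe, at chr6:31271412-31271471, is wholly intronic. The HLA-C probe is printed because it reads unspliced or intron-retaining RNA, with the bases that differ from HLA-B, its closest other gene, in capitals.
HLA-C OEV5_34363: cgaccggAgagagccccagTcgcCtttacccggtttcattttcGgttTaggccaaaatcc
The HLA-B intron probe read 7.85, 7.91 and 7.98 against 8.29, 7.53 and 7.83 in the vehicle-labelled group. Here vehicle replicate 1 was the highest array and vehicle replicate 2 the lowest, and the fold change was 0.03 (interval -0.46 to 0.52). On the HLA-C intron probe the values were 7.93, 7.99 and 7.99 against 8.18, 7.87 and 8.16, a fold change of -0.10 (interval -0.47 to 0.26). Both intervals include the -0.43 of the HLA-C exon probe and leave out the -0.59 of the HLA-B exon probe, and whether exon and intron probes differ was not tested. Besides HLA-C itself, 4 genes share 50 or more bases with the HLA-C intron probe, HLA-B among them with 55.

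HLA-E, HLA-F and HLA-G, which encode non-classical heavy chains, were listed among 25 further genes of the pathway and have 1 exon probe each. With HLA-B and HLA-C these make 5 exon probes, and the 5 fold changes were negative, from -0.59 to -0.26 with a median of -0.43. An unadjusted p under 0.05 by limma was found for 3 of the 5, and none passed adjustment. Of all tested probes, 6.77% had such a p in either direction and 2.76% in the lower direction. The probes are not independent measures, since those of HLA-B, HLA-C and HLA-G share 53 to 58 of 60 bases with a transcript of another class I gene. The HLA-F and HLA-E probes share 46 and 37.

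HLA-G probe A_24_P311926 read 14.43, 14.39 and 14.40 against 14.68, 14.91 and 14.86, a fold change of -0.41 (unadjusted p = 0.0238, limma), and has 53 bases in common with HLA-C. HLA-E, whose product presents signal peptides to natural killer cells, read 12.89, 12.77 and 13.06 against 13.25, 13.03 and 13.23, a fold change of -0.26 (interval -0.63 to 0.10). With slide as a block or on the 4 arrays of slide 2 alone the median of the 5 fold changes was -0.35, from -0.54 to -0.07, and none had an unadjusted p under 0.05. None of the 5 had one either without 1α,25(OH)2D3 replicate 1, or without vehicle replicate 2 or 3. With scaling to each array's 75th percentile all 5 were negative.

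**Figure D2:**
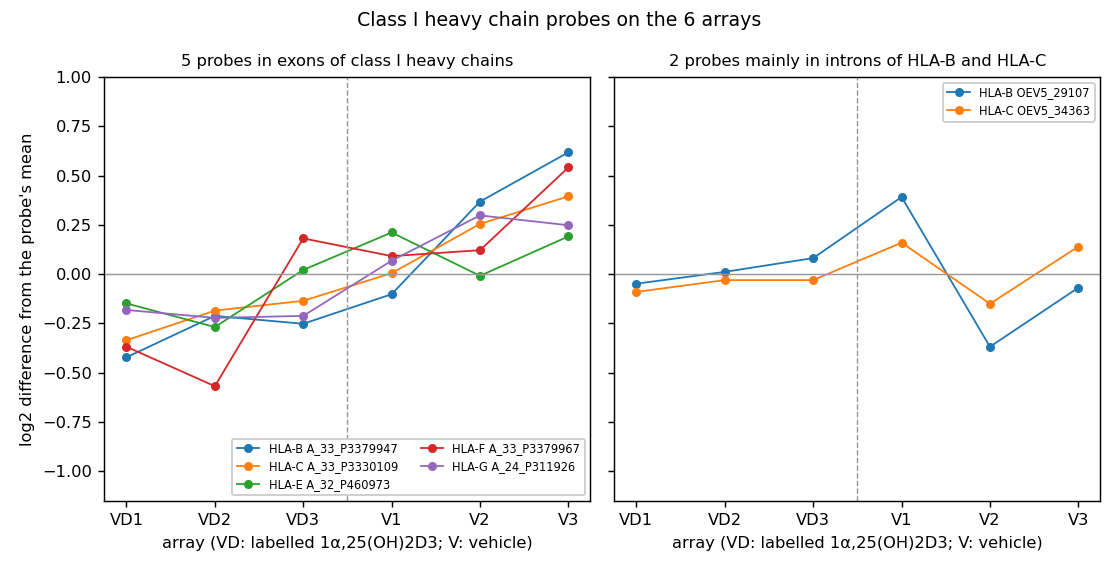
Log2 difference from each probe's own mean (y axis) on the 6 arrays (x axis, VD for arrays labelled 1α,25(OH)2D3 and V for vehicle) for 5 exon probes of HLA-B, HLA-C, HLA-E, HLA-F and HLA-G (left) and the intron probes of HLA-B and HLA-C (right). The 5 exon probes have fold changes between -0.59 and -0.26, and both intron probes are lowest on vehicle replicate 2.

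The light chain differed between the labels by less than its arrays spread. B2M lies on chromosome 15 (hg38, plus strand, chr15:44711358-44718851). Its probe A_23_P37441 is wholly coding, in exon 2 (chr15:44715575-44715634). It is printed as a sequence with no close match to another gene, unlike the heavy chain probes.
B2M A_23_P37441: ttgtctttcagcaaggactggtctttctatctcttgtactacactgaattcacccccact
It read 13.70, 13.41 and 13.85 against 14.10, 13.59 and 13.87 in the vehicle-labelled group. The groups overlapped, and the fold change was -0.20 (SE 0.20, interval -0.66 to 0.26, adjusted p = 0.788 by limma). Within slide 2 it was -0.00. The other B2M probe, OEV5_34320, spans 36 coding bases and 24 bases outside canonical exons in transcripts with no defined coding sequence. It read 11.40, 11.11 and 11.03 against 11.20, 10.73 and 11.26, a fold change of 0.12 (interval -0.35 to 0.58).

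The peptide transporter and the immunoproteasome genes lie close together in the MHC class II region. TAP2 is at chr6:32821833-32838739, PSMB8 at chr6:32840717-32844679, TAP1 at chr6:32845209-32853816 and PSMB9 at chr6:32844136-32859851, with PSMB9 on the plus strand and the others on the minus strand. The annotated span of PSMB9 overlaps PSMB8 and contains TAP1, and it begins upstream of the RefSeq start used for the promoter window below. TAP1 and PSMB9 start from a shared divergent promoter, so the RefSeq promoter windows (GRCh38.p14, from 250 bases before to 50 bases after the start) of both genes overlap in 13 bases, chr6:32853942-32853954. The part of the TAP1 window outside annotated exons is shown 5′ to 3′ on the minus strand (chr6:32853817-32853954), since it holds the motifs named below. Capitals mark a CCAAT box (here in reverse, and at chr6:32853949-32853953 in the PSMB9 window too) and a pair of overlapping interferon response cores (GAAANNGAAA, in reverse).
TAP1 promoter: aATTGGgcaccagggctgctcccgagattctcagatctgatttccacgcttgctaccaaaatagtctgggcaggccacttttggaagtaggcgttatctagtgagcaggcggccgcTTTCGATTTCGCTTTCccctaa

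TAP1 was the only member besides HLA-B and HLA-C whose groups did not overlap, and its difference had the opposite sign. Its probe A_23_P59005, in the 3′ untranslated region of the last of 11 exons, read 9.90, 10.00 and 9.90 against 9.80, 9.49 and 9.61 in the vehicle-labelled group. Vehicle replicate 1, at 9.80, came close to the 9.90 of the other label's lowest arrays. The fold change was 0.30 (SE 0.15, interval -0.06 to 0.66, unadjusted p = 0.0877, adjusted p = 0.701 by limma), a factor of 1.23. With slide as a block it was 0.27 (unadjusted p = 0.233, limma), and it stayed between 0.23 and 0.39 when single arrays were left out.

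TAP2, the other subunit of the transporter, was dim. Its probe A_33_P3214650 in the 3′ untranslated region of exon 12 read 5.68, 6.13 and 5.25 against 5.25, 5.97 and 5.92, with overlapping groups and a fold change of -0.03 (interval -0.69 to 0.63). Probe A_23_P368067 lies in an alternative 3′ end outside the canonical transcript. It read 4.45, 4.82 and 5.34 against 2.46, 5.20 and 4.92, and the value of 2.46, on vehicle replicate 1, was not well above background. That array sets its fold change of 0.67, whose interval ran from -0.90 to 2.25, and without vehicle replicate 1 the value was -0.19. The interval of the brighter probe includes the 0.30 of TAP1.

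The immunoproteasome subunits did not separate by label. PSMB8 (β5i) was read by probe A_23_P250629, across coding exons 3 and 4, with 10 spots per array whose SD was 0.0589 to 0.102. The values were 9.33, 9.19 and 9.73 against 9.92, 9.09 and 9.56 in the vehicle-labelled group. Within each label the arrays spread more widely than the groups differ, and the fold change was -0.10 (SE 0.25, interval -0.69 to 0.48). It was 0.21 with slide as a block.

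PSMB9 (β1i) replaces the constitutive subunit encoded by PSMB6, and the coding probe in exon 2 (chr6:32856141-32856200) is shown because these subunits are related in sequence. Capitals mark the 11 bases that differ from PSMB6, 43 are identical, and 6 did not align.
PSMB9 A_23_P111000: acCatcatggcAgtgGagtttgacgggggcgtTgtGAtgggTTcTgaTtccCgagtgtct
It read 9.47, 9.51 and 9.67 against 9.77, 8.57 and 9.52. Vehicle replicate 2, at 8.57, stood below all other arrays, the next of which read 9.47, and without it the fold change of 0.27 (SE 0.30, interval -0.44 to 0.97) became -0.09. PSMB10, the remaining immunoproteasome subunit, had a fold change of -0.01 (interval -0.45 to 0.44), on a probe that also matches a transcript of another gene exactly. The 7 probes of the constitutive subunits PSMB5, PSMB6 and PSMB7 had fold changes of -0.30 to -0.11, and none had an unadjusted p under 0.05 by limma. PSMB8-AS1, an antisense lncRNA that overlaps PSMB8 and TAP1, had 4 probes with fold changes of 0.15 to 0.38 and overlapping groups.

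Tapasin, the bridge between transporter and heavy chain, was bright and gave the same picture on its 4 probes. TAPBP lies at chr6:33299694-33314284 on the minus strand. The probe with the highest mean, A_33_P3325914 in coding exon 6, read 12.67, 12.40 and 13.00 against 12.95, 12.04 and 12.59 in the vehicle-labelled group. Probe A_23_P259580, across coding exons 3 and 4, read 12.58, 12.38 and 13.06 against 12.92, 11.98 and 12.72. Vehicle replicate 2 was the lowest array on all 4 probes. The fold changes were 0.16 (interval -0.46 to 0.78) and 0.14 (interval -0.54 to 0.81).
The 3′ untranslated probe A_23_P365719 read 12.08, 11.77 and 11.90 against 12.23, 10.94 and 11.42, and the intron probe A_23_P360291 read 7.70, 7.22 and 7.95 against 7.61, 6.84 and 7.30. Their fold changes were 0.39 and 0.38, with intervals from -0.34 to 1.12 and from -0.24 to 0.99. Without vehicle replicate 1 the 3′ probe gave 0.74 (unadjusted p = 0.0113, adjusted p = 0.414, limma), and without vehicle replicate 2 the lead probe gave -0.08.

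NLRC5, which turns on the class I genes, is a large gene of 49 canonical exons on chromosome 16 (chr16:56989485-57083531, plus strand). Of its 8 probes only A_32_P416583, in exon 20, is wholly coding. The other 7 lie mainly or wholly in introns of the canonical transcript. The coding probe read 9.0, 9.11 and 9.30 against 9.84, 8.67 and 9.39 in the vehicle-labelled group. The highest and the lowest value thus both carried the label vehicle, and the fold change was -0.17 (SE 0.29, interval -0.84 to 0.51, adjusted p = 0.882 by limma).

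The NLRC5 probe with the highest mean, OEV5_39553, has 58 intron bases of its 60 and read 9.17, 9.39 and 9.55 against 9.74, 9.31 and 9.32, a fold change of -0.09 (interval -0.53 to 0.35). Over the 7 intronic probes the fold changes ran from -0.16 to 0.36, with 2 above 0 and 5 below, and the groups overlapped on every one of them. The others below 0 were OEV5_34065 at -0.04, OEV5_38758 at -0.13, OEV5_39440 at -0.08 and OEV5_41969 at -0.16. The positive ones were OEV5_32934 at 0.36 and OEV5_39327 at 0.29, and the first of these gave 0.71 (unadjusted p = 0.0113, adjusted p = 0.414, limma) without vehicle replicate 1. Vehicle replicate 1 was the highest array on 7 of the 8 NLRC5 probes. The exception was OEV5_39327, highest on 1α,25(OH)2D3 replicate 3.

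**Figure D3:**
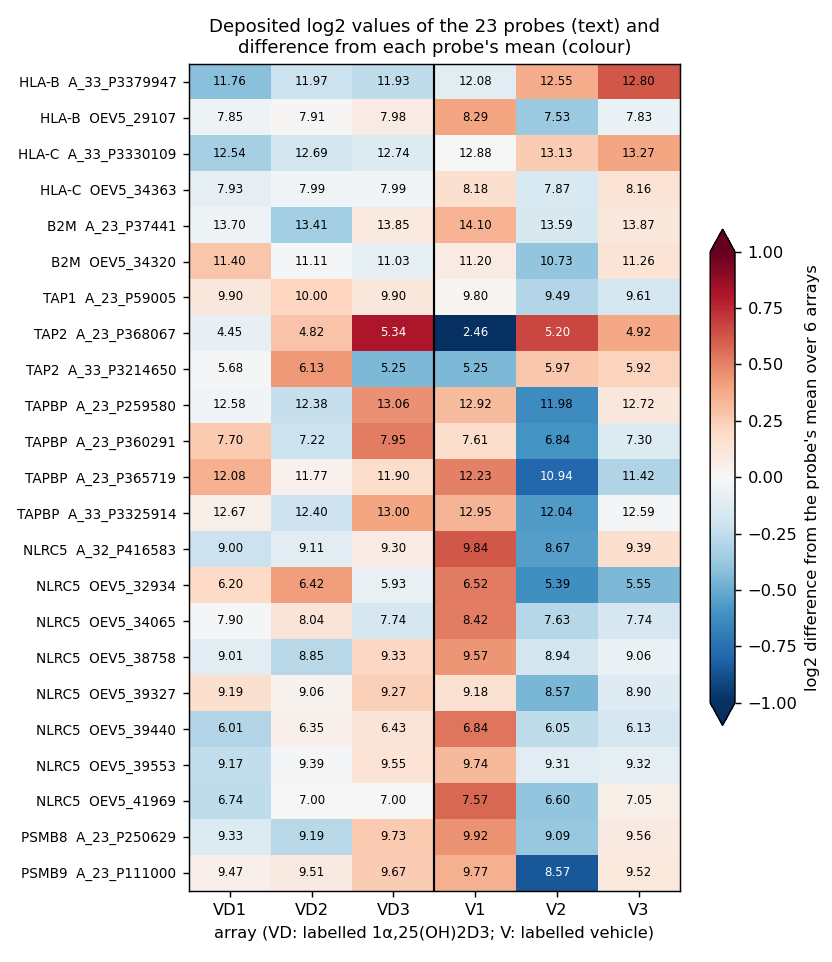
Deposited log2 values of the 23 probes (numbers) on the 6 arrays (columns, VD for the label 1α,25(OH)2D3 and V for vehicle), coloured by the log2 difference from each probe's mean. The array labelled vehicle replicate 2 is the lowest on 15 of the 23 probes and the array labelled vehicle replicate 1 the highest on 13.

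Some arrays stood apart across genes. Vehicle replicate 2 was the lowest of the 6 arrays on 15 of the 23 probes, while it was the lowest on 17.1% of all tested probes, and vehicle replicate 1 was the highest on 13, against 17.3% of all tested probes. Scaled to the 75th percentile of each array, the counts were 15 and 12. Probes of a gene share their RNA, and NLRC5 and TAPBP together hold 12 of the 23, so the counts by gene are lower: vehicle replicate 2 was the lowest and vehicle replicate 1 the highest on 4 each of the 9 lead probes, the probe of each gene with the highest mean. Against this, vehicle replicate 2 read above every array labelled 1α,25(OH)2D3 on the exon probes of HLA-B and HLA-C. Vehicle replicate 2 also had the lowest share of probes well above background, and the part of this in the values was not tested. The median range over the 6 arrays was 0.83 for the members, from 0.31 (HLA-C intron probe) to 2.88 (TAP2 probe A_23_P368067), and 0.69 for all tested probes.

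**Figure D4:**
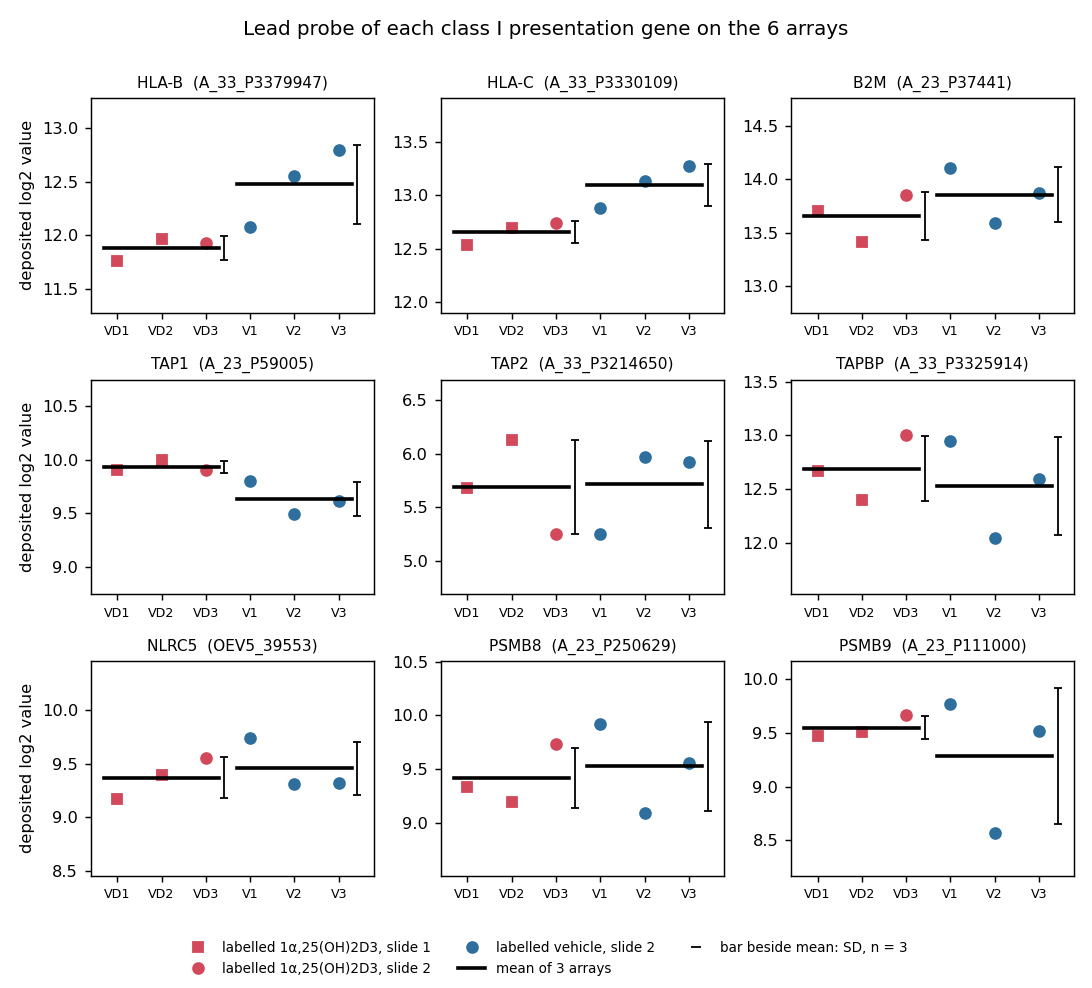
Deposited log2 value (y axis, each panel spanning 2 units) of the probe with the highest mean of each of the 9 genes on the 6 arrays (x axis), red for the label 1α,25(OH)2D3, blue for vehicle, squares for slide 1 and circles for slide 2, with group means (lines) and SD (bars, n = 3). The groups separate for HLA-B, HLA-C and TAP1, and vehicle replicate 2 stands at 8.57 for PSMB9.

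Since CYP24A1 went against the labels, the members were also read beside it on each array, with no grouping, because arrays set apart by a measured signal are not groups the labels give. In the order of A_23_P28815, from 1α,25(OH)2D3 replicate 1 (2.23), 1α,25(OH)2D3 replicate 3 (3.30) and vehicle replicate 2 (4.75) to 1α,25(OH)2D3 replicate 2 (13.84), vehicle replicate 1 (14.18) and vehicle replicate 3 (14.34), HLA-B read 11.76, 11.93, 12.55, 11.97, 12.08 and 12.80. HLA-C read 12.54, 12.74, 13.13, 12.69, 12.88 and 13.27 in that order. HLA-B and HLA-C were thus lowest where the CYP24A1 probe was lowest and highest where it was highest, but the order did not hold between these ends: vehicle replicate 2 had the next to highest value of both, and 1α,25(OH)2D3 replicate 2 read below 1α,25(OH)2D3 replicate 3 on HLA-C.
In the same order B2M read 13.70, 13.85, 13.59, 13.41, 14.10 and 13.87, TAP1 read 9.90, 9.90, 9.49, 10.00, 9.80 and 9.61, and PSMB9 read 9.47, 9.67, 8.57, 9.51, 9.77 and 9.52. B2M had its lowest and its highest value on arrays with bright CYP24A1 signal, and TAP1 and PSMB9 had their lowest on vehicle replicate 2 with dim signal. For TAPBP the order gave 12.67, 13.00, 12.04, 12.40, 12.95 and 12.59, with the extremes on 2 arrays of dim signal.

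**Figure D5:**
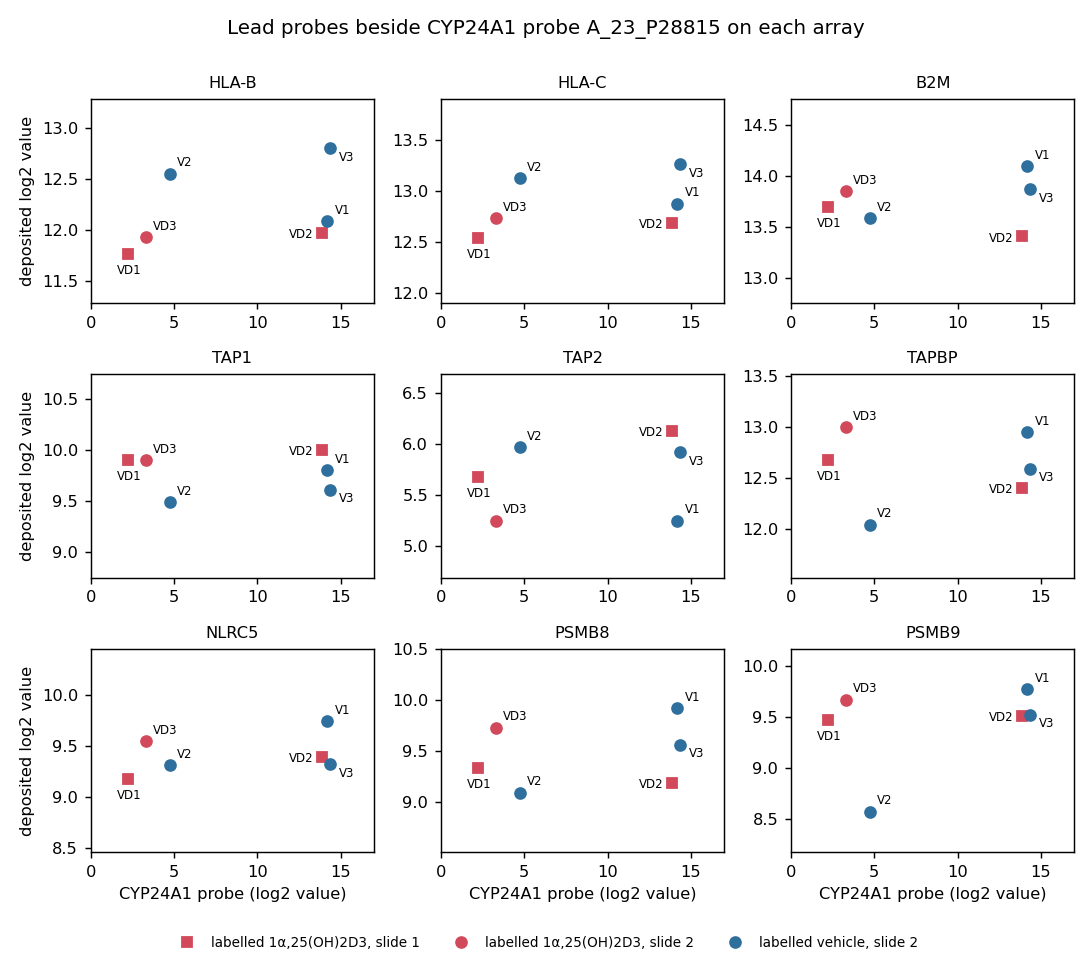
Deposited log2 value of the lead probe of each gene (y axis) beside the log2 value of CYP24A1 probe A_23_P28815 (x axis) on the 6 arrays, red for the label 1α,25(OH)2D3 and blue for vehicle. The CYP24A1 values run from 2.23 to 14.34 with arrays of each label at both ends, and HLA-B reads 11.76 at the lowest and 12.80 at the highest of them.

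Of the 25 other genes of the pathway, all had a lead probe in the fit. At an unadjusted p under 0.05 by limma were 3 of them, IRF1 and ERAP1 higher and HLA-G lower with the label 1α,25(OH)2D3, and none passed adjustment. Of all tested probes 6.77% had such a p. The median fold change of the 25 was -0.11, and the groups of 7 did not overlap, beside 12.2% of all tested probes. IRF1, the interferon regulatory factor that acts on class I promoters, read 8.92, 8.57 and 9.02 on probe A_23_P41765 in its 3′ untranslated region against 8.46, 8.18 and 7.93. Every array labelled 1α,25(OH)2D3 lay above every other, by a fold change of 0.65 (interval 0.18 to 1.12, unadjusted p = 0.0137, adjusted p = 0.701 by limma). A mostly coding IRF1 probe, OEV5_28482, gave 0.60 (unadjusted p = 0.01, limma), while an intron probe, OEV5_45771, gave -0.23 (interval -1.14 to 0.68). Within slide 2 the lead probe gave 0.84 (unadjusted p = 0.0334, limma), from a lone array labelled 1α,25(OH)2D3 with no spread of its own.

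ERAP1, the aminopeptidase that trims peptides in the endoplasmic reticulum, read 5.72, 5.78 and 5.78 against 5.35, 5.03 and 5.44, a fold change of 0.49 (interval 0.10 to 0.87, unadjusted p = 0.0193, limma). Its arrays separated by label with little spread in the group labelled 1α,25(OH)2D3, and the fold change within slide 2 was 0.50. The probe was dim, however, and with normexp background correction its fold change was 0.18. The other ERAP1 probe was well above background on no array. PSME2, a subunit of the proteasome activator PA28, had positive fold changes on all 6 tested probes, from 0.17 to 0.52. Its intron probe OEV5_31612 had an unadjusted p of 0.0312 and an adjusted p of 0.701 by limma. The only exon probe, A_23_P65427, gave 0.25 (interval -0.33 to 0.83) with overlapping groups, and the other tested probes lie in introns. A further intron probe, too dim to test, had means of 4.43 with the label 1α,25(OH)2D3 and 4.63 with the label vehicle.
CIITA, the class II counterpart of NLRC5, had probes that disagreed: the lead probe A_33_P3233070 gave -0.21 (interval -0.64 to 0.23), the coding probe A_33_P3324394 gave 0.74 (unadjusted p = 0.0236, limma) at values of 4.49 to 5.92 with 2 of the 3 vehicle-labelled arrays well above background, and 7 further probes were too dim to test. Within slide 2 the coding probe gave 1.32, where the lone array labelled 1α,25(OH)2D3 read 5.92.

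RefSeq promoter windows were found for 8 of the 9 genes, 10 windows in all, and not for NLRC5. An interferon response core, GAAANNGAAA on either strand, is in windows of B2M, PSMB8, TAP1, TAP2 and TAPBP, 5 of 8 genes. By window that is 5 of the 10, against 3.57% of all 35116 promoter windows. A CCAAT box is in those of B2M, HLA-B, HLA-C, PSMB9 and TAP1, 5 of the 10 windows, against 34.6% of all windows. TGACG, the core of the cyclic AMP response element and of the X2 box of class I promoters, is in 6 of 8 genes, all but TAP1 and TAPBP. By window that is 6 of the 10, against 24.6% of all windows. The nuclear receptor half-site AGGTCA was found in none of the 10 and in 13.8% of all windows, which says only that these letters are absent from these bases. The HLA-C and B2M promoters are shown for the arrangement of TGACG and CCAAT, capitals marking either motif on either strand, at chr6:31272131-31272239 on the minus strand and chr15:44711441-44711486 on the plus strand, both cut where annotated exons begin. The capitalised matches do not overlap.
HLA-C promoter: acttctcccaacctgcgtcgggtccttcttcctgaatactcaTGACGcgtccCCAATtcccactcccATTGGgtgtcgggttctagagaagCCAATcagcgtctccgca
B2M promoter: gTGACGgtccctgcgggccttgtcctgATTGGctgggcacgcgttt
Both CCAAT and TGACG are in the windows of HLA-B, HLA-C, B2M and PSMB9. The lead probes of these genes had fold changes of -0.59, -0.43, -0.20 and 0.27. TAP1 and PSMB9, which share a promoter, had 0.30 and 0.27 with intervals that include 0. Without vehicle replicate 2 these were 0.23 and -0.09. Whether the motifs bear on the fold changes was not tested.

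The members' mean profile, the average of the 9 lead probes each taken from its own mean, was -0.11, -0.06 and 0.05 against 0.14, -0.16 and 0.14 in the vehicle-labelled group. Of 12388 other protein-coding genes, the 5 most like it over the 6 arrays by Pearson's r were POFUT2 (0.989), CRYBG2 (0.988), OTUD5 (0.987), SLC1A7 (0.984) and CEACAM1 (0.981). CRYBG2, for example, read 8.54, 8.61 and 8.82 against 9.21, 8.37 and 9.15. These coefficients describe 6 arrays that share slides and labels, they were chosen as the highest of many, and no p is given.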

How the data were processed

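Single-colour arrays of SKOV3 cells were analysed, 3 labelled 1α,25(OH)2D3 and 3 labelled vehicle. The groups were taken from the sample labels. The labels name the line SKOV-3, except that the titles write SKOV-1 and the culture protocol SKOV-13. For RNA extraction they name the mirVana kit, whereas the methods of the study name TRIzol. The authors extracted spot intensity values with Agilent Feature Extraction 10.7.1.1, and deposited for each spot a background-corrected intensity and a flag for signal well above background. All values given here come from the log2 table that the authors deposited for the series, in which every probe has a value for each array. Its sorted columns differed by at most 0.00091, so it had been quantile-normalized between arrays, which removes any shift shared by most probes. Its rank correlation with the scanner intensity of the same array was 0.9998 to 0.9999.

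Probes were placed by exact sense matches to GENCODE release 44 transcripts (90604 of 125601 probes, 72.1%), with coordinates on hg38, and blastn 2.17.0 gave the closest transcript of another gene. Promoter windows were RefSeq's (GRCh38.p14). Of a gene's probes, the lead probe was that with the highest mean over the 6 arrays. The 63337 probes with signal well above background on every array of at least 1 group were compared with limma 3.58.1 in R 4.3.3 without a covariate, with Benjamini-Hochberg adjustment over all of them and thresholds of 0.05. No depth applies to arrays, and the number of arrays limits the precision. The fit was tested on simulated data.

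All member probes are named. Of 25 other pathway genes, those at an unadjusted p under 0.05 were named, plus HLA-E, PSMB10 and IRF1 (2 other genes of this rule are not reported here), and also the 5 genes most like the members' mean profile. Other probes of these genes, PSMB8-AS1, the constitutive proteasome subunits, PSME2 and CIITA were added after their values were seen. The members and lists were chosen with earlier results of these data known. Alternatives were scaling to the 75th percentile, quantile normalization of the scanner signals, normexp with an offset of 50, other filters on background, slide or replicate number as a block, slide 2 only, an unpaired t-test, which the methods of the study name for its experimental data and not for the arrays, and each array left out.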

Additional observations from a re-analysis of the deposited data

How the results depend on the processing

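No member probe passed the adjusted threshold under any of the alternatives run. At an unadjusted p under 0.05 the count of member probes, 2 as reported, was 1 with scaling to the 75th percentile, 0 with slide as a block and 0 on slide 2 alone, 0 to 4 with single arrays left out (4 without vehicle replicate 1), and 0 when probes with 50 or more bases identical to another gene were left out, an alternative chosen after seeing the data. Of the other pathway genes, 3 as reported, it was 1 with slide as a block or on slide 2 alone, and 1 to 8 with single arrays left out (8 without vehicle replicate 1). Over all probes the unadjusted count was 4286 as reported, 7029 with no filter on background, 2617 with slide as a block, 2141 on slide 2 alone, and 1620 (without 1α,25(OH)2D3 replicate 1) to 10122 (without 1α,25(OH)2D3 replicate 3) with single arrays left out. The adjusted count over all probes was 0 to 4 with single arrays left out, the 4 without vehicle replicate 1. The t-test gave 2 member probes before and 0 after adjustment, HLA-C and TAP1 (unadjusted p = 0.0367 for TAP1).

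Of 149 fold changes of lead probes under an alternative, 131 kept their sign and 18 changed sign, and none came near the adjusted threshold (lowest adjusted p = 0.298, limma). At the unadjusted threshold HLA-B and HLA-C each changed side under 8 of 16 alternatives and TAP1 under 1 of 15. HLA-C and TAP1 never changed sign. With another probe of the gene, HLA-B became 0.03, B2M 0.12, TAP2 0.67 and NLRC5 0.36 or 0.29. With slide as a block or on slide 2 alone, NLRC5 became 0.10 and PSMB8 0.21. With single arrays left out, TAP2 ran from -0.26 to 0.19 (0.19 without 1α,25(OH)2D3 replicate 3, 0.10 and 0.08 without vehicle replicates 2 and 3), TAPBP from -0.08 (without vehicle replicate 2) to 0.37, NLRC5 from -0.18 to 0.05 (0.01 without 1α,25(OH)2D3 replicate 1, 0.05 without vehicle replicate 1), PSMB8 from -0.32 to 0.09 (0.01 without 1α,25(OH)2D3 replicate 2, 0.09 without vehicle replicate 1) and PSMB9 from -0.09 (without vehicle replicate 2) to 0.51. The cause of these changes was not tested.

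The groups share replicate numbers. Deviations of same-numbered arrays from their group means correlated at 0.12, 0.09 and -0.03 over the tested probes, and those of differently numbered arrays at -0.25 to 0.19. Deviations within a group of 3 arrays are tied to each other, so these values cannot show whether the arrays were paired. With a replicate block 2 member probes had an unadjusted p under 0.05, HLA-B at -0.59 (unadjusted p = 0.0201, limma) and HLA-C at -0.43 (unadjusted p = 0.0387, limma). The block thus changed no call among the member probes. Among the non-classical heavy chains HLA-F came under the threshold (unadjusted p = 0.0262, limma) and HLA-G no longer did (unadjusted p = 0.05, limma). Dim probes limit TAP2 most, since its probe A_23_P368067 was well above background on 2 of the 3 arrays labelled vehicle.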
